A study of Mus musculus with 4 samples.

Results

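The regions described here are the taller EBF1-wt binding sites at which no EBF1-H240A peak was called. They were chosen as rows of the EBF1-wt peak list with a summit pileup of 30 or more whose interval shared no base with any EBF1-H240A peak, on chromosomes 1 to 19 and X of the mouse build mm9. The rule found 575 such regions among the 4422 peaks of the EBF1-wt list. They are 25.2% of the 2280 EBF1-wt peaks with that pileup, whereas 49.1% of the 4419 EBF1-wt peaks of any height on these chromosomes had no overlapping EBF1-H240A peak. Both percentages are products of the rule and are given as background.

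Early B-cell factor 1 (EBF1) is a transcription factor that commits lymphoid progenitors to the B lineage, together with E2A, PAX5 and FOXO1. It binds DNA as a dimer at a palindromic site, activates genes of the pre-B-cell receptor and represses genes of other lineages. It can also open closed chromatin, and its partner factors help to set which sites it occupies in pro-B cells.

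Chromatin immunoprecipitation sequencing (ChIP-seq) was done on C57BL/6 pro-B cells transformed with A-MuLV, the Abelson murine leukemia virus, which lets such cells grow without feeder cells. Both groups carried Ebf1fl/fl, a conditional Ebf1 allele, and RERTCre, a Cre recombinase activated by tamoxifen, and both were treated with 2 μM 4-hydroxytamoxifen from 24 h after transduction. A retroviral pmys vector with IRES-GFP supplied either EBF1-wt or EBF1-H240A, named for replacement of a histidine by an alanine, and GFP-positive cells were sorted, so each group is a sorted pool of transduced cells from the transformed culture. Sorting was placed 2 days after transduction in the series text and 5 days after treatment in the sample protocol. The series text gives 5 days in medium with 4-hydroxytamoxifen for both groups. A check by immunoblot was also described, and the peak lists do not show its result. There was 1 ChIP library per protein and 1 input for each, and hence no replicate error: no test between the proteins was made, and every interval below covers counting error only.

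Depth has to be set beside every missing call. The scaling in the tables puts the depth of EBF1-wt at 2.71 times that of EBF1-H240A. The pileup, the coverage of extended fragments at the summit, counts 0.635 per fragment in the EBF1-wt list and 1 per fragment in the EBF1-H240A list. With the difference in fragment length included, depth alone gives 0.443 EBF1-H240A fragments for each EBF1-wt fragment. This scaling assumes that both peak calling runs were given an equal genome size, and takes the shortest peak of each list as its fragment length. It also assumes equal enrichment in both precipitations, which the tables do not measure.

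The 575 regions were of moderate height within the EBF1-wt list. Their summits held 48 to 143 fragments, with a median of 58 (quartiles 52 and 67), against a median of 49 for all EBF1-wt peaks on these chromosomes. The pileup limit largely fixes this order. Shared peaks with pileup of 30 or more had a median of 86 fragments (quartiles 64 and 122). The tallest of the 575 regions was exceeded by 287 of the 4419 EBF1-wt peaks. Pileup was under 40 in 380 of the 575 regions (66.1%), 50 or more in 65 and 70 or more in 8. Fold enrichment, the authors' ratio of summit pileup plus 1 to local background plus 1, had a median of 10.9 (quartiles 8.82 and 12.7) and ranged from 2.86 to 28.9. The peak caller's −log10 q-value was at least 10 at 566 regions and at least 20 at 452. Most of the group thus lay close to the height limit, with a short upper tail.

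The height limit fell within a continuous range. Just inside it, 35 regions had a pileup of 30.46, or 48 fragments, and folds of 2.86 to 10.9 (median 9.59). Just outside it, 43 EBF1-wt-only peaks had a pileup of 29.82, or 47 fragments, and folds of 4.4 to 10.7 (median 7.71). In list order, the first inside were chr1:72877086-72877382 (10.9-fold), chr1:136960811-136961077 (10.5-fold) and chr10:74495235-74495490 (10.9-fold). The first outside were chr1:108028943-108029198 (10.7-fold), chr1:135003608-135003877 (7.71-fold) and chr1:156902324-156902592 (6.16-fold). One fragment separates the sets, and their folds overlap.

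EBF1-wt peaks without an EBF1-H240A call were rarer at higher pileup, which describes the values the rule used. They were 380 of 787 peaks with pileup from 30 to 40 (48.3%, 95% Wilson interval 44.8 to 51.8) and 130 of 444 from 40 to 50 (29.3%, 25.2 to 33.7). They were 57 of 485 from 50 to 70 (11.8%, 9.18 to 14.9) and 8 of 564 at 70 or more (1.42%, 0.720 to 2.77). Below the limit the share was 70.1% (67.8 to 72.4) from 20 to 30. The intervals of neighbouring ranges did not overlap. At 80 or more, 3 of 399 peaks lacked an EBF1-H240A call.

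**Figure D1:**
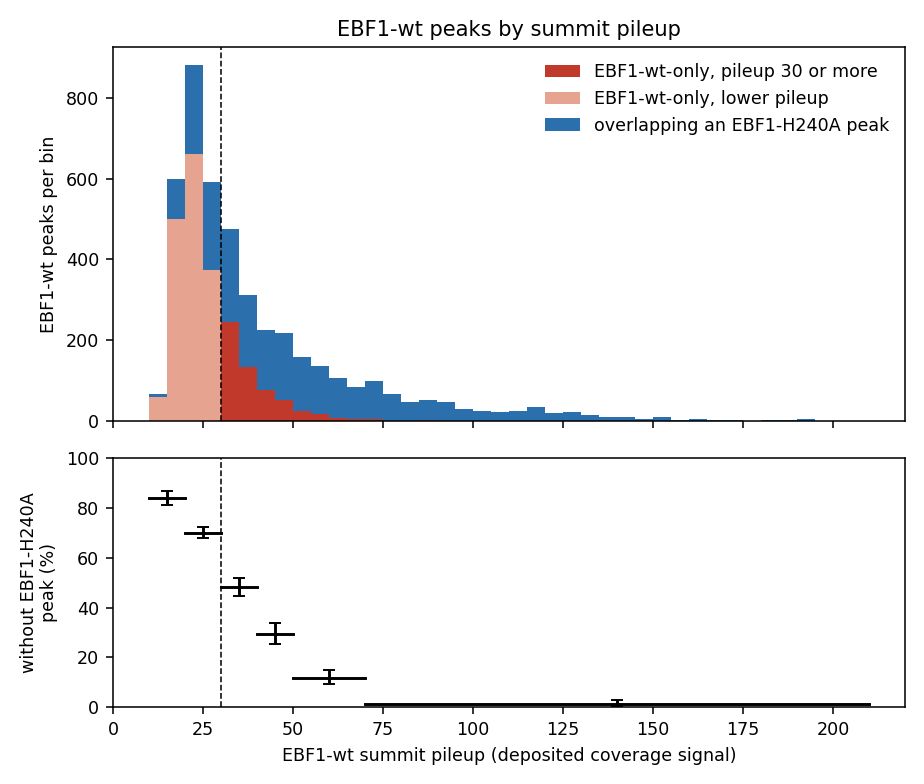
Upper panel, number of EBF1-wt peaks per bin of 5 pileup units, stacked by class; lower panel, percentage of EBF1-wt peaks without an overlapping EBF1-H240A peak in each of 6 pileup ranges (horizontal lines), with 95% Wilson intervals. The dashed line is the pileup limit of 30, above which the percentage fell from 48.3% to 1.42%.

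Scaled to the EBF1-H240A depth, the 575 regions would hold 21.3 to 63.4 fragments, with a median of 25.7. The EBF1-H240A list itself has a median of 25 fragments at its summits and a lowest value of 10. Of its 2757 peaks on these chromosomes, 1046 (37.9%) had fewer fragments than the lowest of these expected values. The lowest count listed changed little up to a local background of 3 in that library and was higher above it. It was 11 fragments where the background was under 1.4, 10 from 1.4 to 2 and 11 from 2 to 3. From 3 to 4 it was 13, and in the 74 peaks at 4 or more it was 19. The EBF1-H240A background at the 575 regions is not given in the tables, since only called peaks are listed. The lowest listed counts lie below the lowest expected value of 21.3. They come from called peaks alone and do not set a level above which every site is called. Whether the regions would have been called at their expected values was not tested. A missing call does not show that no EBF1-H240A was bound.

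Shared peaks of the same height show how widely EBF1-H240A counts spread. At the 407 shared peaks with EBF1-wt pileup from 30 to 40, the overlapping EBF1-H240A peak held 11 to 85 fragments, with a median of 23 (quartiles 19 and 29). The 380 unshared regions in that range had a median expected value of 23.5. From 40 to 50, shared peaks held 11 to 93 EBF1-H240A fragments (median 27), and the 130 unshared regions had a median expected value of 30.6. From 50 to 70, shared peaks held 11 to 114 (median 35), and the 57 unshared regions had 39.0. At 70 or more the order was the opposite: shared peaks held 14 to 320 (median 63), and the 8 unshared regions had a median expected value of 53.4. Shared peaks there were also taller for EBF1-wt, with a median of 145 fragments against 120.5. By depth, the shared peaks' own median expected values in these ranges were 23.9, 31.5, 40.8 and 64.2, from lowest to highest. The median EBF1-H240A count at shared peaks was below their own median expected value in each range. Counts at shared peaks are limited from below by the need to be called.

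The 14 tallest regions (the first 12 places by pileup, with ties) held 103 to 143 EBF1-wt fragments and would hold 45.6 to 63.4 EBF1-H240A fragments by depth. All 14 expected values lie above the median of the EBF1-H240A list. They were spread over chromosomes 2, 5, 6, 7, 10, 11, 13, 15, 17 and 18, and 2 of them had an EBF1-H240A summit within 5 kb, while 7 had none within 50 kb.

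The tallest, chr13:48873524-48873917, held 143 fragments (95% Poisson interval 120.5 to 168.5) over a local background of 5.00, which gave 15.3-fold enrichment and only place 44 of 575 by fold. chr17:45765094-45765499 held 140 fragments (117.8 to 165.2) over a background of 7.0, for 11.2-fold. chr15:68090097-68090608 held almost as many, 139, over a background of 2.09, and so had the highest fold of the group, 28.9. These 3 regions are alike in fragments within their intervals and differ in fold through the denominator.

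Low background also marked the other regions with high fold. chr6:137704875-137705197 held 123 fragments (102.2 to 146.8) at a background of 1.88, the lowest level in the list, for 27.4-fold. chr18:33954314-33954729 held 111 fragments at the same background, for 24.8-fold. chr5:125533050-125533407 held 113 fragments at a background of 2.09, for 23.5-fold. chr7:26202635-26202988 reached 23.0-fold with 103 fragments, and chr2:167602718-167603189 reached 22.1-fold with as many. In all, 6 of the 14 tallest regions had a background under 2.1 and 5 had one of 4 or more.

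The surroundings of these tall regions differed. At chr2:127163693-127164047 (118 fragments, 18.8-fold) an EBF1-H240A summit of 171 fragments lay at 2956 bp, so the mutant protein's library had a tall peak close by. chr10:79611316-79611679 (108 fragments) had an EBF1-H240A summit of 20 fragments at 4365 bp. chr17:46278726-46279053 (105 fragments) lay 11753 bp from a shared EBF1-wt peak of 198 fragments and 11748 bp from an EBF1-H240A summit of 122. By contrast, chr6:137704875-137705197 had its nearest other EBF1-wt summit 109627 bp away. The remaining tall regions were chr2:35651015-35651352 (113 fragments, 12.1-fold), chr7:30123570-30124056 (104 fragments, 16.7-fold) and chr11:115781422-115781773 (103 fragments, 11.1-fold). The nearest EBF1-wt peak was itself shared at 7 of the 14 and EBF1-wt-only at the other 7.

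**Figure D2:**
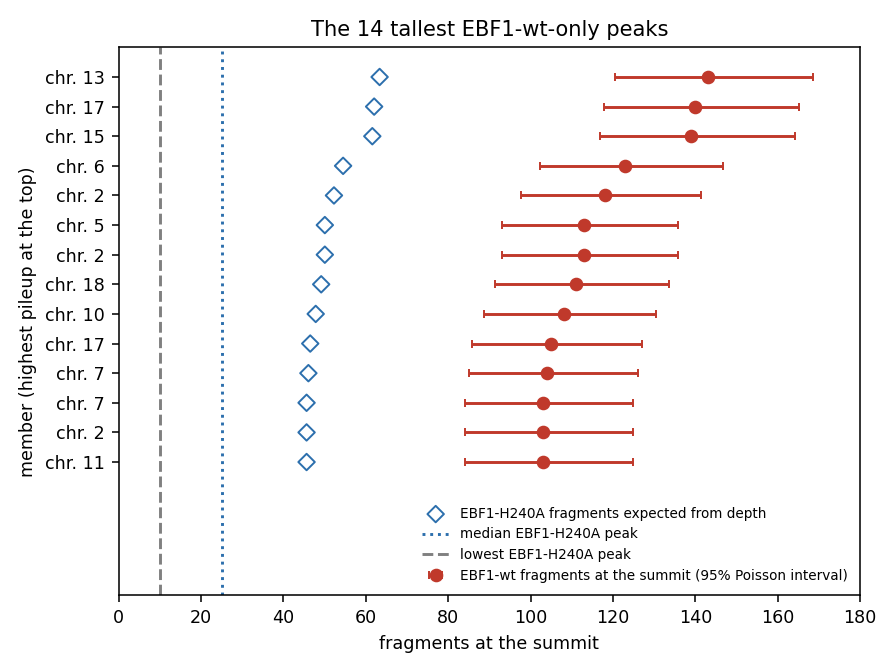
Fragments at the summit of the 14 tallest EBF1-wt-only peaks, ordered by pileup and labelled by chromosome. Filled points are EBF1-wt counts (103 to 143) with exact 95% Poisson intervals, open diamonds are the EBF1-H240A counts expected from depth (45.6 to 63.4), and vertical lines mark the lowest (10) and median (25) EBF1-H240A peak.

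Compared with shared EBF1-wt peaks of the same pileup range, the regions were slightly narrower. Median widths were 287 bp against 298 bp from 30 to 40, 325.5 bp against 334 bp from 40 to 50 and 340 bp against 362 bp from 50 to 70. At 70 or more the medians were 376 bp (n = 8) and 433 bp (n = 556). Within each range the unshared regions also had a lower median pileup, at 33.63 against 34.26, 43.78 against 45.05, 55.84 against 58.38 and 76.46 against 92.01. Width enters the rule, because a wider interval overlaps more easily. When sharing was instead defined by summits within 100 bp, which does not use width, the median differences were -10, -9.5, -14 and -26 bp in place of -11, -8.5, -22 and -57 bp.

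Fold and background did not separate the groups in a single direction. From 30 to 40 the unshared regions had a lower median background than shared peaks (2.48 against 2.85) and a higher median fold (10.1 against 9.61). From 40 to 50 the order was the opposite for both, with backgrounds of 2.66 and 2.54 and folds of 12.2 and 12.6. From 50 to 70 the backgrounds were 2.98 and 3.0 and the folds 14.8 and 15.8. In the 30 to 40 range, 130 of 236 peaks with a background under 2.1 were unshared (55.1%, 48.7 to 61.3), and between 42.9% and 47.1% of peaks were unshared in the 4 classes of higher background. From 40 to 50 the shares were 27.4% (20.6 to 35.5) under 2.1, then 29.1%, 36.9% and 33.8% in the next 3 classes, and 10.9% (4.73 to 23.0) at 4.2 or more. From 50 to 70 the class under 2.1 had 14.2% (8.91 to 21.8), above the 9.30%, 10% and 11.1% of the next 3 and below the 16.7% (8.70 to 29.6) at 4.2 or more. The lowest background class thus stood highest of 5 in the first of these ranges alone, and many of the intervals overlap.

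A few regions near the height limit had low fold over a high background. The lowest fold, 2.86, was at chr8:48758985-48759191, where 48 fragments stood over a background of 10.0, the highest in the group. Next were chr11:76311347-76311606 (51 fragments, background 8.0, 3.71-fold) and chr7:108450102-108450734 (48 fragments, background 7.0, 3.93-fold). These 3 rows were singled out for their folds after the values were seen. A background of 4.2 or more was found at 49 of the 575 regions (8.52%, 6.51 to 11.1) and at 192 of 1705 shared peaks (11.3%, 9.85 to 12.8). The floor of the list was found at 73 regions (12.7%, 10.2 to 15.7) and 144 shared peaks (8.45%, 7.22 to 9.86). These totals mix heights. From 30 to 40 the shares at the floor were 13.9% (10.8 to 17.8) and 10.6% (7.94 to 13.9). From 40 to 50 they were 8.46% (4.79 to 14.5) and 9.87% (7.04 to 13.7). From 50 to 70 they were 12.3% and 7.94%, and at 70 or more 2 of 8 and 6.47%. The regions thus had the higher share at the floor except from 40 to 50, and the intervals overlapped in each range. For a background of 4.2 or more, the shares were 8.68% and 10.1% from 30 to 40. From 40 to 50 they were 3.85% (1.65 to 8.69) and 13.1% (9.77 to 17.2), without overlap. The order was the opposite from 50 to 70 (8 of 57 and 9.35%) and at 70 or more (3 of 8 and 12.6%).

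**Figure D3:**
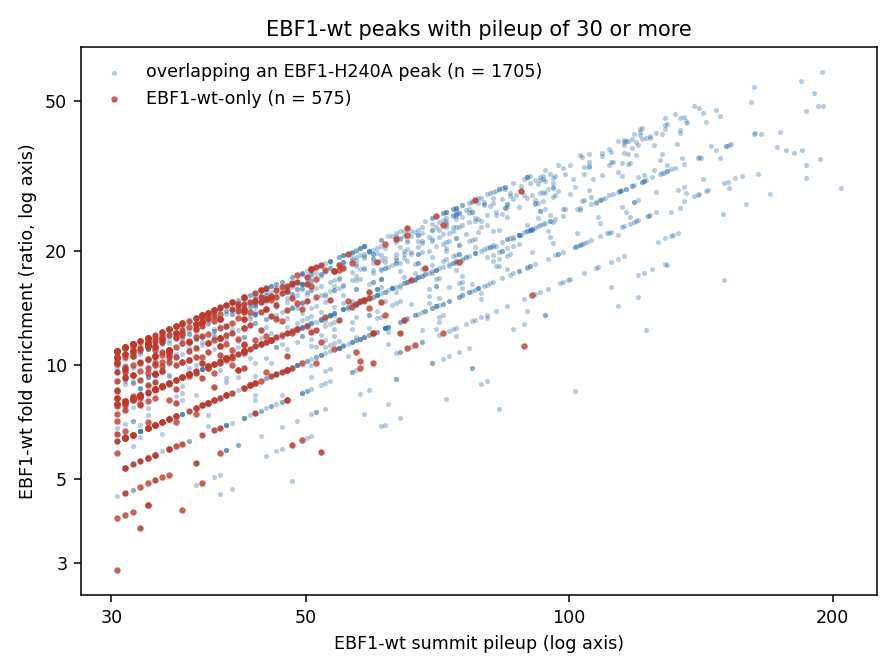
Fold enrichment against summit pileup, both on log axes, for the 2280 EBF1-wt peaks with pileup of 30 or more: 575 EBF1-wt-only (red) and 1705 shared (blue). The diagonal stripes are steps of the local background; red points fill the same band as blue points at low pileup and thin out toward 90.74, the highest pileup of an EBF1-wt-only peak.

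Summits were central in both groups. The summit fell in the middle 20% of the interval at 486 of 575 regions (84.5%) and at 1437 of 1705 shared peaks of pileup 30 or more (84.3%). An exception was chr9:3334945-3335613, a 669 bp peak with its 94-fragment summit 24.3% along the interval, which was singled out, after the values were seen, as the summit nearest to the start of its interval in relative terms.

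Most of the regions, and most peaks of the classes compared below, had no other EBF1-wt summit within 10 kb. Within 50 kb, 54.8% of the regions had another. So did 60.4% of shared peaks with pileup of 30 or more and 52.4% of lower EBF1-wt-only peaks. Chaining EBF1-wt summits that lay within 20 kb of each other left 370 of the 575 regions (64.3%) as the sole EBF1-wt peak of their chain. A further 133 (23.1%) shared a chain with at least 1 shared peak, and 72 (12.5%) lay in chains of several peaks with no shared one. Chain shares were not worked out for the other classes. No other EBF1-wt summit lay within 100 kb of 29.4% of the regions (25.8 to 33.2). The share was 25.3% (23.3 to 27.4) for shared peaks with pileup of 30 or more and 33.5% (31.2 to 35.9) for lower EBF1-wt-only peaks. Of the regions, 23.8% (20.5 to 27.5) had another EBF1-wt summit within 10 kb, against 30.7% of shared peaks with pileup of 30 or more (28.5 to 32.9) and 23.0% of lower EBF1-wt-only peaks (21.0 to 25.2). In the 30 to 40 range alone the shares were 89 of 380 (19.4% to 27.9%) and 122 of 407 (25.7% to 34.6%), whose intervals overlap. From 40 to 50 they were 26.2% (19.4 to 34.3) and 25.5% (21.0 to 30.6), in the opposite order. From 50 to 70 they were 21.1% (12.5 to 33.3) and 30.1% (26.0 to 34.6), and at 70 or more 2 of 8 and 192 of 556 (34.5%, 30.7 to 38.6). The regions were thus below shared peaks in 3 of 4 ranges, with overlapping intervals in each range. Where a neighbour existed within 10 kb, it was shared, at any height, for 77 of 137 regions (56.2%, 47.8 to 64.2) and for 315 of 523 shared peaks (60.2%, 56.0 to 64.3).

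An EBF1-H240A summit lay within 10 kb of 101 of the 575 regions (17.6%, 14.7 to 20.9) and of 14.6% (12.9 to 16.4) of the 1594 lower EBF1-wt-only peaks, with overlapping intervals. Shared peaks with pileup of 30 or more had an additional, non-overlapping EBF1-H240A peak with its summit within 10 kb in 21.99% of cases (20.1 to 24.0). These totals mix heights. For the regions and shared peaks, the shares were 17.4% and 20.4% from 30 to 40, and 16.9% and 18.2% from 40 to 50. From 50 to 70 they were 21.1% and 22.2%, and at 70 or more 1 of 8 and 25.2%. The intervals overlapped in each range. The median distance to the nearest EBF1-H240A summit was 72527 bp, with quartiles of 18790 bp and 305148 bp. For 62 regions (10.8%, 8.50 to 13.6) the nearest EBF1-H240A summit was more than 1000 kb away, as it was for 165 of the 1594 lower EBF1-wt-only peaks (10.4%, 8.95 to 11.9). The most distant were chr14:106296463-106296724 (64 fragments), at 11355115 bp, chrX:139261269-139261518 (48 fragments), at 8160077 bp, and chr5:45934715-45934961 (48 fragments), at 7047649 bp. The chromosome 14 region had its nearest EBF1-wt neighbour 2228622 bp away, so both lists were sparse there.

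**Figure D4:**
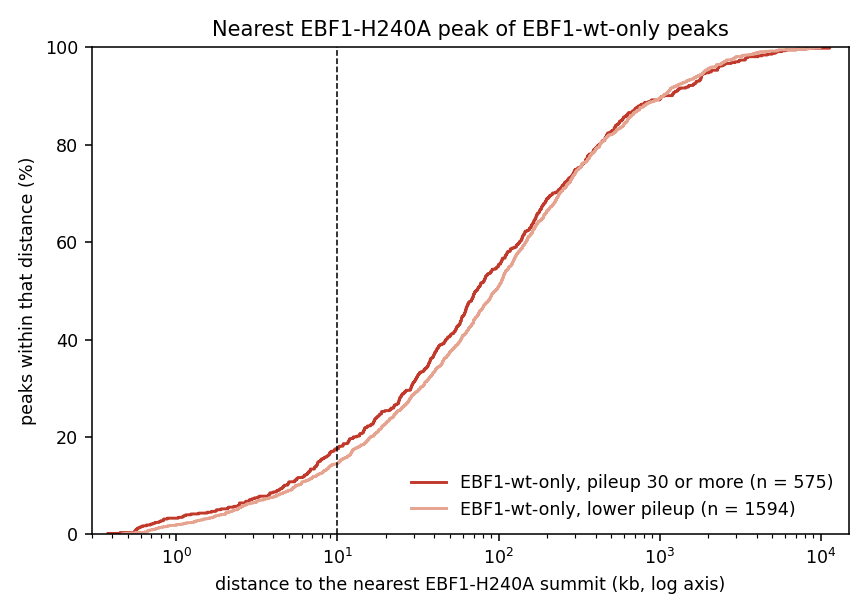
Cumulative percentage of EBF1-wt-only peaks by distance to the nearest EBF1-H240A summit (kb, log axis), for 575 peaks with pileup of 30 or more and 1594 with lower pileup. The dashed line marks 10 kb, where the curves stand at 17.6% and 14.6%; they run close together over the whole range.

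At 30 regions (5.22%, 3.68 to 7.35) an EBF1-H240A summit lay within 2 kb without overlapping. At 24 of these, that EBF1-H240A peak overlapped a second EBF1-wt peak, so that EBF1-wt had a pair of peaks and EBF1-H240A was called at 1 of them. The called member of the pair was the taller for EBF1-wt in 16 of 24 cases and the lower in 8. Its median EBF1-wt count was 74.5 fragments (range 35 to 210), against 55.5 at the uncalled one. At the called peaks EBF1-H240A had a median of 29.5 fragments (16 to 148), where depth gave a median expectation of 33.0, with 9 above and 15 below their own expectation. At the uncalled peaks the median expectation was 24.6.

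The pairs differed widely in balance. At chr7:28116816-28117125, with 55 EBF1-wt fragments, the called neighbour 688 bp away held 181 EBF1-wt and 126 EBF1-H240A fragments. chr15:82047446-82047807, with 71 fragments, stood 1896 bp from a neighbour with 210 EBF1-wt and 148 EBF1-H240A fragments. In the opposite arrangement, chr4:106926134-106926435 held 67 EBF1-wt fragments with no EBF1-H240A call, while the neighbour 501 bp away held 37 EBF1-wt fragments and 18 of EBF1-H240A. Likewise chr14:65995372-65995703 held 70 fragments uncalled, and its neighbour at 1386 bp held 35 EBF1-wt and 24 EBF1-H240A fragments. In these last pairs the EBF1-H240A peak was listed at the lower of the EBF1-wt summits, and both pairs were picked for that order after the values were seen.

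**Figure D5:**
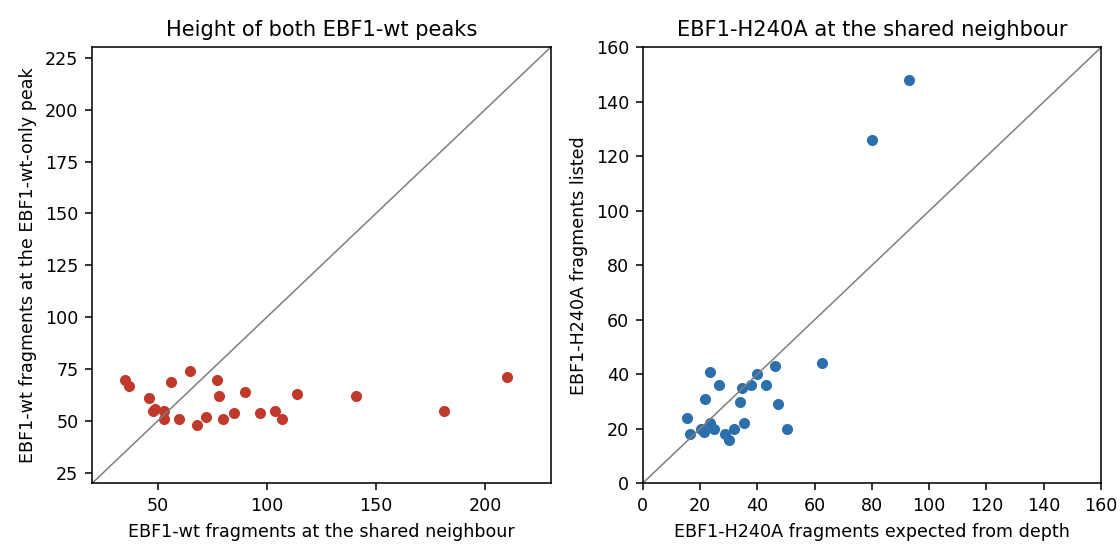
The 24 EBF1-wt-only peaks with a shared EBF1-wt peak beside them, whose EBF1-H240A summit is within 2 kb. Left, EBF1-wt fragments at the EBF1-wt-only peak against those at the shared neighbour (16 points below the line of equality, 8 above); right, EBF1-H240A fragments listed at the neighbour against the number expected from depth (9 above the line, 15 below).

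At the other 6 of the 30, the nearby EBF1-H240A peak overlapped no EBF1-wt peak, so the lists had neighbouring but separate calls. chr1:78485575-78485858 (56 EBF1-wt fragments) had an EBF1-H240A summit of 15 fragments at 377 bp, with 69 bp between the intervals. chr19:6399311-6399761 (67 fragments) had one of 14 fragments at 447 bp, with 27 bp between the intervals. The third nearest of all EBF1-H240A summits, at 547 bp, was that beside chr4:106926134-106926435. The largest of the 6 was chr15:101076737-101077118, with 93 EBF1-wt fragments and an EBF1-H240A summit of 13 fragments at 1652 bp. The EBF1-H240A counts in these 6 places were all low, 13 to 20 fragments. Among all 71 pairs of EBF1-wt peaks of pileup 30 or more within 2 kb of each other, both were shared in 46 (64.8%, 53.2 to 74.9), 1 was shared in 22 (31.0%, 21.4 to 42.5) and neither in 3 (4.23%, 1.45 to 11.7). Of all 2280 EBF1-wt peaks with that pileup, 25.2% were unshared, and whether close pairs differ from this share was not tested.

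Groups made up of the regions themselves were few. Chaining the 575 regions within 20 kb gave 538 single regions, 17 pairs and 1 group of 3. The group of 3 spanned 6342 bp on chromosome 13, from 48873524 to 48879865, and included the tallest region. Its summits held 143, 65 (50.2 to 82.8) and 50 (37.1 to 65.9) fragments, with folds of 15.3, 9.99 and 8.10. No other EBF1-wt summit lay within 20 kb of it, and the nearest EBF1-H240A summit was 2289225 bp from its last summit. By depth the 3 summits would hold 63.4, 28.8 and 22.2 EBF1-H240A fragments.

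Of the 205 chains with 3 or more EBF1-wt peaks, 16 held at least 1 of the regions and no shared peak. A group on chromosome 5 spanned 6673 bp, from 135409518 to 135416190. In it, chr5:135412268-135412669 held 63 fragments and chr5:135415886-135416190 held 60, both at backgrounds of 1.88 to 1.9, and 3 lower EBF1-wt-only peaks held 36, 40 and 40. A more compact group on chromosome 7, 1506 bp long, had chr7:17313931-17314276 with 92 fragments and, 407 bp away, chr7:17314367-17314632 with 48; another EBF1-wt peak held 30. From the 92-fragment peak it was 7548 bp to an EBF1-H240A summit, which held 17 fragments. These groups are described for their composition; with 1 library per protein their place among all groups was not tested.

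The regions were found on all 20 chromosomes. Their share of the EBF1-wt peaks with pileup of 30 or more ran from 3 of 17 on chromosome X (17.6%, 6.19 to 41.0) and 14 of 76 on chromosome 16 (18.4%, 11.3 to 28.6) to 22 of 59 on chromosome 18 (37.3%, 26.1 to 50.0). The pileup ranges of the peaks on those chromosomes gave 33.5%, 24.3% and 30.04%. On each of the 20 chromosomes the value from pileup ranges lay inside the Wilson interval. Chromosome 17 held 45 regions, 26.9% (20.8 to 34.1) of its peaks of that height, where pileup ranges gave 21.5%. The median local background of its regions was 4.00, against 2.47 for the 530 regions elsewhere; the part of this background in the calls was not tested.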

How the data were processed

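Of 4 libraries, the peak lists of both ChIP libraries were used; the inputs entered through the peak caller's values. The submitters' processing notes name MACS2 2.1.0.20150731, HOMER 4.6, Bowtie2, Picard, SAMtools, bcl2fastq 1.8.4 and the mm9 build; their roles, settings and duplicate handling, not given in the sources used here, could shift which peaks were listed. Sonication aimed at 300 bp on average and libraries had 10 PCR cycles, per the labels' protocols. Per the file headers, each library has its own list, with a summit pileup (a coverage signal), −log10 p-values and q-values, a fold enrichment (ratio) and a length (other unit: bp, as deposited by the authors). The lowest deposited −log10 q-values were 2.06 and 2.01. The per-peak values are the authors' own.

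Fragments are pileup divided by the step; all distinct EBF1-wt pileups were whole multiples within 0.02 fragments. Local background is (pileup + 1) / fold − 1. The depth ratio used the lowest backgrounds (1.88 and 1.32), the step and the shortest peaks (190 and 228 bp) as fragment lengths. Computation used Python 3.11.15, pandas 2.3.3, numpy 2.4.6 and scipy 1.17.1. Shares have 95% Wilson intervals and fragments exact 95% Poisson intervals, for counting error only; PCR reads are not independent molecules. The code was tested on simulated peak lists, where 10 of 10 quantities were recovered. The simulated sites lay on a spaced grid, so close pairs and chains were not tested. Fragment lengths were supplied there, so taking them from the shortest peak was not tested either. The count of unshared tall peaks was set against the same overlap function, so its recovery was fixed in advance. Regions named are the 12 with the highest pileup (14 with ties), the 5 with the highest fold, those next to the limit, the 3 nearest to and farthest from an EBF1-H240A summit, and the fullest chains; others are said to be picked afterwards, and the pairs, chains and chromosome extremes named were also picked from their values. The regions and comparisons were chosen with earlier results of these data known. No mm9 genome or annotation was used here, so genes, positions relative to genes, motifs and sequences of the regions were not analysed here.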

Additional observations from a re-analysis of the deposited data

How the results depend on the processing

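Counting error is the only error that these tables give, and depth limits what a missing EBF1-H240A call can show. Of 40 alternative values, 30 stayed within the limit set for each kind (counts within 1.5 times, shares within the main interval, medians within 1 SD of the regions), 9 moved further and 1 reversed. The limit for medians was wide beside the median differences, so staying within it says little about their stability. A width difference of -57 bp that became -26 bp, at a pileup of 70 or more, was counted as within it. The number of regions (575) was 949 with a pileup of 25 or more, 195 with 40 or more, 816 when only EBF1-H240A peaks with a −log10 q of at least 10 counted, 452 for EBF1-wt peaks with a −log10 q of at least 20, and 395 with a fold of 10 or more in place of the pileup limit, a setting added after seeing the data; with the other overlap rules it was 551 to 611. The unshared share of EBF1-wt peaks (25.2%) was 33.0% and 13.1% at those pileup limits, and 35.8%, 22.7% and 22.1% with the q and fold settings in the same order. Without chromosome 17, also added later for medians, the median background difference at a pileup of 30 to 40 was -0.19 in place of -0.37. The share with an EBF1-H240A summit within 10 kb (17.6%) was 10.6% within 5 kb and 40.7% within 50 kb, as the window's size requires. At a pileup of 70 or more, the median background difference between unshared and shared peaks (-0.43, with 8 unshared peaks) was 0.040 when sharing meant summits within 100 bp, a setting also added later. The planned motif and location alternatives were not run. No paired analysis was possible because there is just 1 library for each protein.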
